A study of Mus musculus with 10 samples.

Results

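The Hox genes encode homeodomain transcription factors that set position along the body axis of the embryo, and in the mouse they lie in 4 clusters named Hoxa, Hoxb, Hoxc and Hoxd. Genes at the 3′ end of a cluster act early and anteriorly and genes at the 5′ end act later and posteriorly. In tissues of the head that form in front of the Hox domain, the retina included, the clusters are kept silent, chiefly under Polycomb repression. They were examined here as a reference for how the signal of 2 histone marks changed with glucose at loci that are largely silent in the mature retina. Expression was not measured in these libraries, so the check of that label rests on the 2 marks.

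The Hox peaks were taken as every peak whose assigned gene symbol begins with Hoxa, Hoxb, Hoxc or Hoxd followed by a digit. The rule found 7 of 108253 peaks, with 6 symbols: Hoxa7, Hoxc8 with 2 peaks, Hoxc10, Hoxc11, Hoxd12 and Hoxd3os1, a non-coding transcript antisense to Hoxd3. The rule used names alone and no measured value.

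The signals came from cultures of whole neural retina, dissected free of the pigment epithelium from wild-type C57BL/6J mice at postnatal day 28 and kept for 48 h in Neurobasal-A medium with either 5 or 25 mM glucose. CUT&Tag, which tags DNA beside a histone mark bound by an antibody, was made on dissociated cells for histone H3 lysine 18 lactylation (H3K18La) with 3 libraries per glucose level and for histone H3 lysine 27 acetylation (H3K27Ac) with 2. Both marks lie at active promoters and enhancers, and lactylation uses a group derived from lactate, the end product of glycolysis. The sources call the libraries biological replicates but do not say which cultures or animals each came from, so p-values measure the spread between these libraries. The protocol given with the libraries names an H3K9me3 antibody where the titles and the study's methods name H3K27Ac, and the titles were followed. The table has as many regions as the set the study describes for lactylation peaks merged over the developing and mature retina, so a region listed here need not have been a peak in these explants.

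Values are RPKM, reads scaled by the width of the peak and the total of the library, and whole reads could be recovered from them at every peak. The library totals implied by the values ran from 1358008 to 7424470 reads. A single read was worth between 0.111 and 1.95 RPKM at a Hox peak, depending on its width and the library. The share of reads in peaks was 11.9% ± 0.0965 (SD, n = 3) at 5 mM and 32.6% ± 2.08 at 25 mM for H3K18La, and 26.3% ± 7.35 (SD, n = 2) and 63% ± 9.19 for H3K27Ac. Over all peaks, 25.4% passed an adjusted p of 0.05 for H3K18La, limma's test with Benjamini-Hochberg adjustment over 108253 peaks, and 27214 of those 27542 were higher at 25 mM (25.1% of all peaks). For H3K27Ac none passed, although 21.5% were under an unadjusted p of 0.05 and voom, limma's weighted test on the recovered reads, called 21.4%.

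Hox peaks were few, and most Hox genes had none. Of 39 coding Hox genes in the annotation, 5 had an assigned peak and 34 had none. The Hoxb cluster, 10 genes over 174 kb at chr11:96194316-96368256, held no peak of any symbol. The Hoxa cluster with 11 genes at chr6:52155590-52260880 held 3 peaks, of which 1 was assigned to a Hox gene. The other two carried the symbol Gm27543 and lay at chr6:52251235-52251629 and chr6:52252519-52253458. The Hoxc cluster with 9 genes at chr15:102921103-103036852 held 4 peaks and the Hoxd cluster with 9 genes at chr2:74668310-74765142 held 2, all assigned to Hox symbols. The 4 clusters together held 9 peaks in 492 kb, or 1.83 per 100 kb, against 4.09 per 100 kb over the ungapped genome. The nearest peak outside the cluster lay 11.7 kb away on the Hoxb1 side and between 44.6 and 203 kb away at the other cluster ends. Coordinates are of GRCm38.

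**Figure D1:**
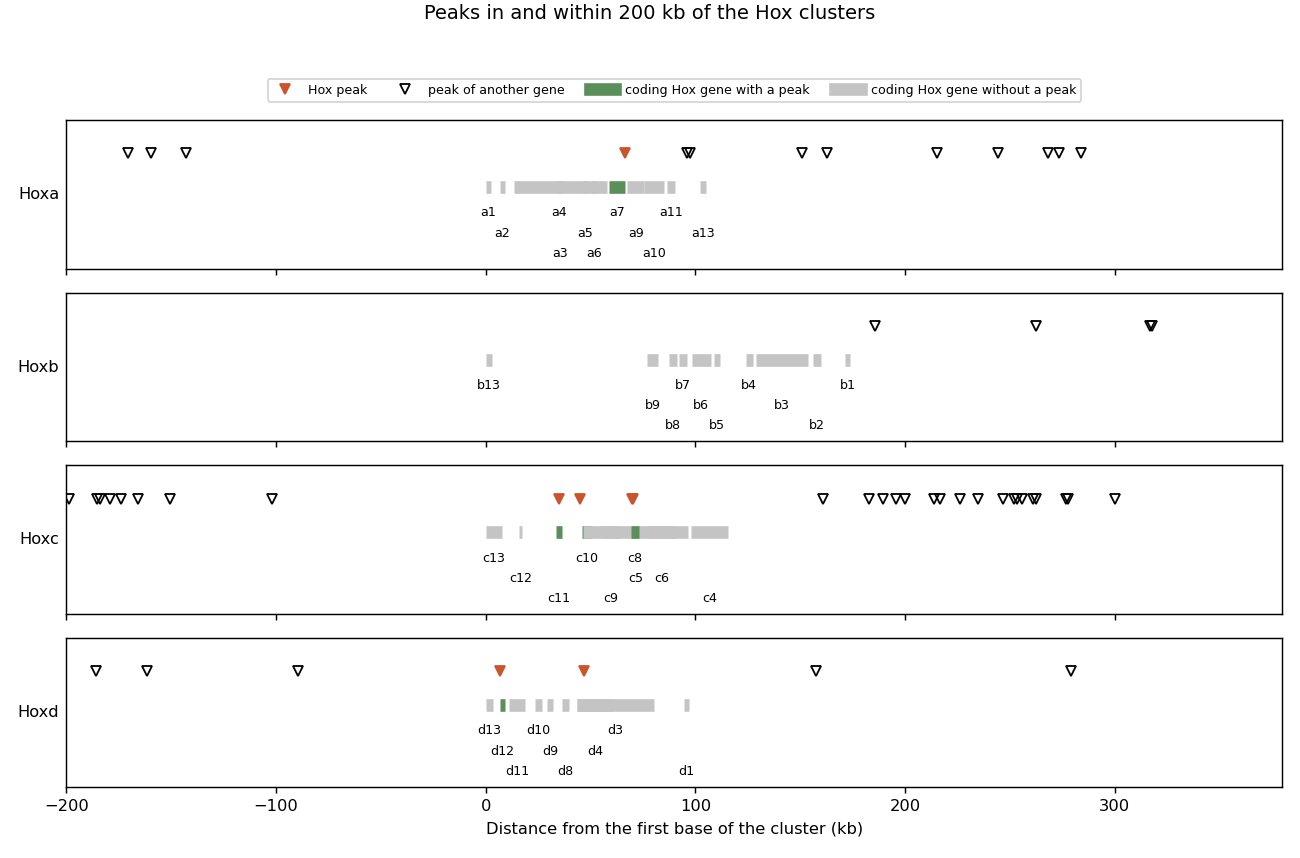
Peaks in and around the 4 Hox clusters, with distance from the first base of each cluster in kilobases on the horizontal axis. Bars are coding Hox genes, green where a peak was assigned to the gene and grey where none was, filled triangles are the 7 Hox peaks and open triangles are peaks of other symbols within 200 kb; the Hoxb row has no triangle over its genes.

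Of the 7 peaks, 6 were narrower than the median peak, and most lay at or near start sites. Their widths ran from 377 to 1214 bp with a median of 514 bp, against a median of 757 bp over all peaks. Of the 7, 6 were annotated as promoter and 1, Hoxc11, as intron. The Hoxa7 peak at chr6:52221321-52222534 covered the start site and first untranslated stretch of the gene. The Hoxc11 peak at chr15:102955905-102956369 lay 1478 bp after the start site. The Hoxc10 peak at chr15:102966028-102966404 lay before it, at -392 bp. The Hoxc8 peaks at chr15:102990396-102990909 and chr15:102991060-102991717 lay 151 bp apart, the first over the start site and the other 453 bp after it. They share a promoter and are not independent loci. Both also lay inside the annotated span of Hoxc5, so their reads cannot be told apart from those of that gene. The Hoxd12 peak at chr2:74675066-74675660 began 53 bp after its start site. The Hoxd3os1 peak at chr2:74715178-74715640 lay 490 bp after the start of the antisense transcript, and it also lay inside introns of Hoxd3 and Hoxd4, so its reads cannot be told apart from those of either gene.

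Polycomb-repressed Hox promoters are known as CpG-rich, and the CpG content of the peaks can be read in their bases. The following stretches of 300 bases were read from GRCm38 on the strand of the named gene, 5′ to 3′, with annotated untranslated bases left out and each CG in capitals. They show the peak with the most H3K27Ac reads (Hoxa7, chr6:52222045-52222344, minus strand), the peak with no H3K18La read (Hoxc11, chr15:102955987-102956286, plus strand), the peak with the lowest CpG ratio (Hoxc10, chr15:102966066-102966365, plus strand) and the peak with the lowest GC content (Hoxd3os1, chr2:74715259-74715558, minus strand).
Hoxa7: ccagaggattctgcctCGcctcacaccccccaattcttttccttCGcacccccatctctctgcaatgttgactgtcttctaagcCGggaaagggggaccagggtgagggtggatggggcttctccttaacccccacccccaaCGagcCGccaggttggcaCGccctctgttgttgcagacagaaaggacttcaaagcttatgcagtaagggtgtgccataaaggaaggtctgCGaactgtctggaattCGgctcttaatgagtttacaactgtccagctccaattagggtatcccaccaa
Hoxc11: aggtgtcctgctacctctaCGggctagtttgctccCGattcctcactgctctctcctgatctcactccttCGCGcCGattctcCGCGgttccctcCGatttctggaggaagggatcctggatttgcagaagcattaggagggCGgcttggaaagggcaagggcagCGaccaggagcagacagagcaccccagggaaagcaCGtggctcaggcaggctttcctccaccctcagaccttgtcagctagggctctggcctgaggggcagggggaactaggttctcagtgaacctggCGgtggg
Hoxc10: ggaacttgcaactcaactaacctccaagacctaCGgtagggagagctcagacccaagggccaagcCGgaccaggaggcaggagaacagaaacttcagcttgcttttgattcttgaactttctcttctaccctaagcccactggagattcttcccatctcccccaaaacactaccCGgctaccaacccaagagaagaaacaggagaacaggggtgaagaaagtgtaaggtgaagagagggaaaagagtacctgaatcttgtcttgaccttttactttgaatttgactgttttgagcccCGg
Hoxd3os1: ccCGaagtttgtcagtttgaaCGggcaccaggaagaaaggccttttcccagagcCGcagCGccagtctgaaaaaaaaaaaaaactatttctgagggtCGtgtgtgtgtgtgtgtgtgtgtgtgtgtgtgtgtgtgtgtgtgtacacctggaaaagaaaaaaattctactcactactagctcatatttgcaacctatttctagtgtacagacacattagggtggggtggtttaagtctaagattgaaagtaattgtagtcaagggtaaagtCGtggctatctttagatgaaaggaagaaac
The Hoxc11 stretch held 12 CG and the Hoxa7 stretch 8, while the Hoxd3os1 stretch held 6 and the Hoxc10 stretch 4. Whole peaks are in another order, with 64 CG in 1214 bp at Hoxa7 and 23 in 465 bp at Hoxc11. Hoxd3os1 held 11 in 463 bp and Hoxc10 6 in 377 bp. CG itself is common, and 98.1% of all peaks held at least 1. The ratio of observed to expected CpG had a median of 0.493 over the 7 peaks, from 0.262 at Hoxc10 to 0.862 at the Hoxc8 start site, against 0.199 over all peaks and 0.596 over the 17144 promoter peaks. The median GC content was 58.8%, from 44.7% at Hoxd3os1 to 65.2% at the Hoxc8 start site, against 49.6% over all peaks and 57.5% over promoter peaks. In these measures the Hox peaks lay nearer to promoter peaks than to all peaks. TAATTA, a core that many homeodomains bind, searched as these letters and palindromic, so alike on both strands, was found in 0 of 7 Hox peaks. It was in 2 of 24 RefSeq promoter windows of Hox genes (8.33%) and in 5.29% of all 32851 such windows, which hold 300 bases around a start in GRCm38.p6. The same Hox windows held a median of 14.5 CG against 7 over all windows. No such Hox window overlapped a Hox peak. The window of Hoxd12 ended 4 bp before the peak and that of Hoxa7 lay 2498 bp from it.

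The signal at the Hox peaks was low for both marks. Over the 7 peaks and all libraries there were 31 H3K18La reads and 67 H3K27Ac reads. A single Hox peak had 0 to 4 H3K18La reads in a library, and 21 of the 42 values were 0 (50%, against 20.2% over all peaks). It had 0 to 10 H3K27Ac reads, and 2 of 28 values were 0 (7.14%, against 7.62% over all peaks). At most 3 H3K18La reads in every library were found at 6 of 7 Hox peaks, against 28.4% of all peaks, and at most 3 H3K27Ac reads at 4 of 7, against 16.4%. The mean over the 10 libraries ran from 0.228 RPKM at Hoxc11 to 0.651 RPKM at Hoxd12, percentiles 3.11 to 18.6 of all peaks. None of the 7 reached a mean of 1 RPKM, which 66.9% of all peaks did.

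**Figure D2:**
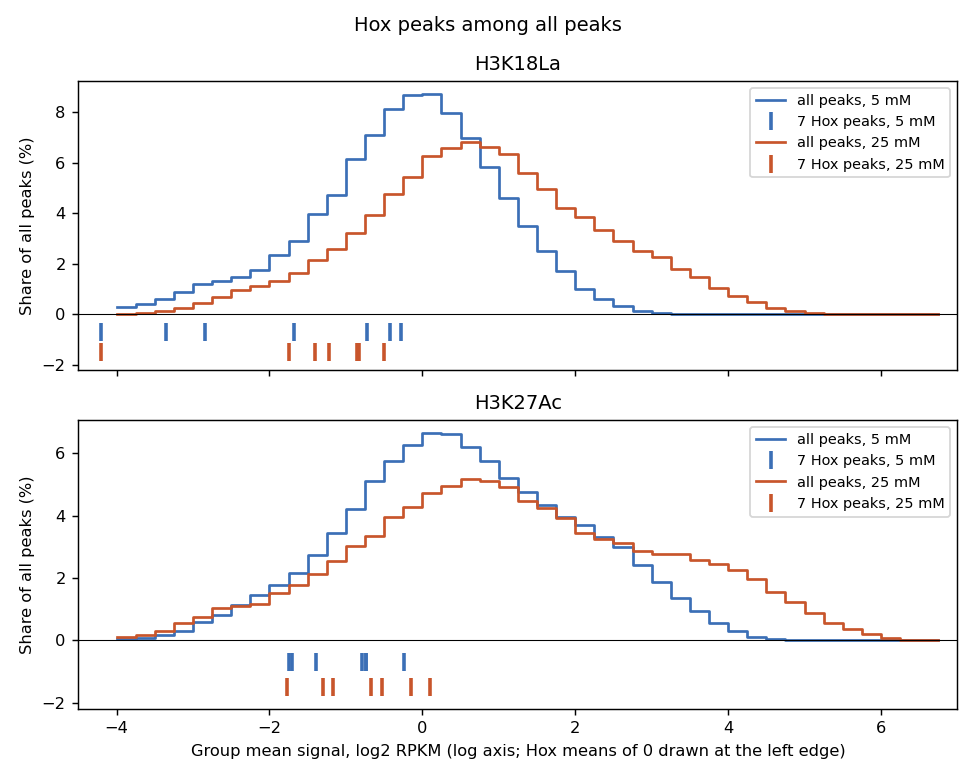
Share of all 108253 peaks (vertical axis, percent) by group mean signal (horizontal axis, log2 RPKM), for H3K18La above and H3K27Ac below, at 5 mM (blue) and 25 mM glucose (orange). Ticks under each curve mark the 7 Hox peaks, all of which lie to the left of the crest of the 25 mM curve; Hoxc11, with no H3K18La read, is drawn at the left edge, and peaks at 0 are not in the curves.

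The mean over the 7 Hox peaks overlapped between glucose levels in the deposited scaling. For H3K18La it was 0.339, 0.344 and 0.484 RPKM in the libraries at 5 mM and 0.292, 0.548 and 0.414 RPKM at 25 mM. The groups overlapped, at 0.389 ± 0.0822 and 0.418 ± 0.128 RPKM (SD, n = 3), a ratio of 1.08. Over all peaks the mean went from 1.14 ± 0.00512 to 2.89 ± 0.142 RPKM, a ratio of 2.53. For H3K27Ac the Hox mean was 0.580 and 0.451 RPKM at 5 mM and 0.798 and 0.473 RPKM at 25 mM. These groups overlapped too, at 0.515 ± 0.0913 and 0.635 ± 0.230 RPKM (SD, n = 2), a ratio of 1.23. Over all peaks the H3K27Ac mean went from 2.36 ± 0.633 to 5.28 ± 0.637 RPKM, a ratio of 2.24. Scaled instead to each library's reads in peaks, the Hox ratios were 0.397 for H3K18La and 0.476 for H3K27Ac, so their direction depends on the scaling. All peaks of a library are moved by the same factor in that scaling. No test was made on a mean over the chosen peaks.

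The depth sets a wide margin around these ratios. Pooled over libraries, the Hox peaks had 13 H3K18La reads at 5 mM and 18 at 25 mM, a ratio per library read of 1.33 with an exact 95% interval of 0.617 to 2.96. They had 23 and 44 H3K27Ac reads, a ratio of 1.38 with an exact 95% interval of 0.815 to 2.39. The intervals cover counting error only, and they hold both 1 and the pooled ratios of all peaks, 2.70 for H3K18La and 2.31 for H3K27Ac. A change at the Hox peaks as large as that of all peaks, and no change, were therefore both within counting error.

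A level to set beside these values is the RPKM that reads outside all peaks would give if spread evenly over the rest of the genome. This outside level was 0.345 RPKM at 5 mM and 0.264 RPKM at 25 mM for H3K18La, and 0.289 and 0.145 RPKM for H3K27Ac. The Hox mean was 1.13 times that level at 5 mM and 1.58 times at 25 mM for H3K18La, while the mean of all peaks was 3.31 and 10.9 times that level. For H3K27Ac the Hox mean was 1.78 and 4.38 times the outside level, and the mean of all peaks was 8.17 and 36.4 times. H3K18La at the Hox peaks thus lay close to the level outside peaks at 5 mM. RPKM is a share of a library's reads, so a larger share of reads in peaks lowers the outside level, and the rise in the Hox multiple includes that fall.

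**Figure D3:**
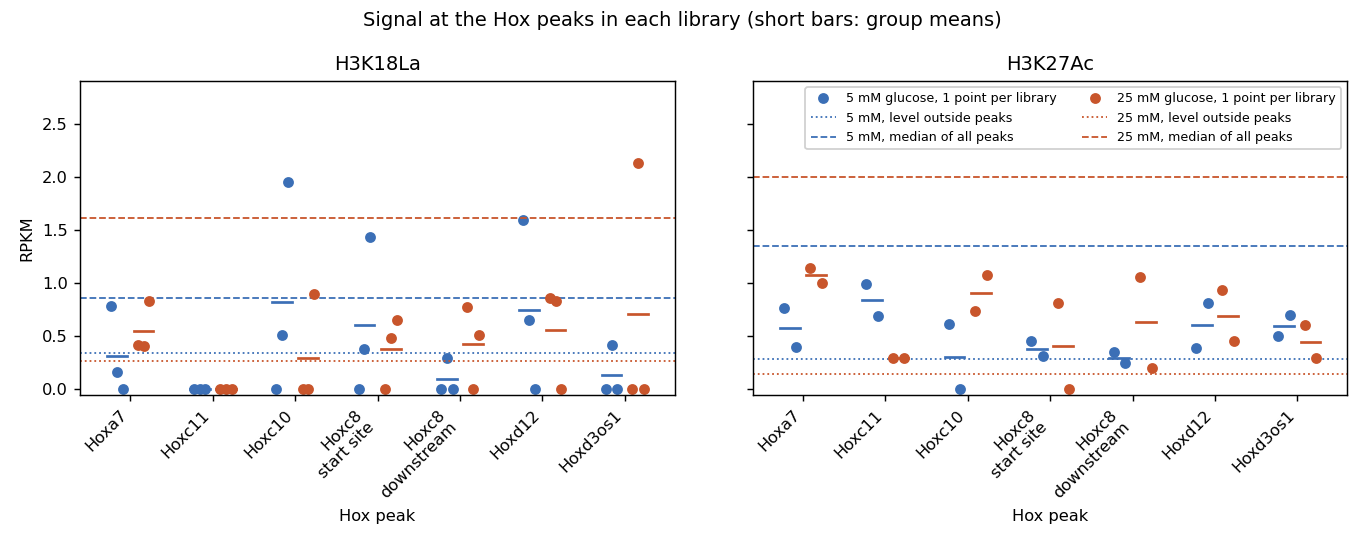
RPKM (vertical axis) at each of the 7 Hox peaks (horizontal axis) in every library, H3K18La at left and H3K27Ac at right, blue at 5 mM and orange at 25 mM glucose. Points are libraries, short bars are group means, dotted lines are the level outside peaks and dashed lines the median of all peaks; every H3K27Ac point lies under the 5 mM median line, and the H3K18La points of 2 glucose groups overlap at each peak.

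Hoxa7, a mid-cluster gene that patterns the trunk, gave the most reads of the family. Its H3K27Ac signal was 0.762 and 0.398 RPKM at 5 mM (4 and 3 reads) and 1.15 and 0.999 RPKM at 25 mM (10 and 9 reads). Both libraries at 25 mM were higher than both at 5 mM, as at 53% of all peaks. The log2 fold change was 0.56 (SE 0.58, 95% interval -0.69 to 1.81) and did not pass limma's test (adjusted p = 0.656). With a library left out it ranged from 0.32 to 0.81. H3K18La at Hoxa7 was 0.781, 0.159 and 0 RPKM at 5 mM and 0.419, 0.405 and 0.833 RPKM at 25 mM, from 0 to 3 reads. The groups overlapped, with a log2 fold change of 0.46 (SE 0.47, adjusted p = 0.503), which became 0.17 without H3K18La 5 mM replicate 3 and 0.85 without H3K18La 5 mM replicate 1. Over both glucose levels together, H3K27Ac at Hoxa7 stood at percentile 27.2 of all peaks, the highest of the 7, although at 5 mM Hoxc11, Hoxd12 and Hoxd3os1 were higher.

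Hoxc11, a posterior gene of the lower trunk and hindlimb, was the one Hox peak listed without any H3K18La read. All 6 libraries were at 0, which allows up to 1.24 RPKM in the deepest library and 4.75 RPKM in the shallowest. H3K27Ac at Hoxc11 was 0.995 and 0.693 RPKM at 5 mM, 2 reads in each, and 0.299 and 0.290 RPKM at 25 mM, 1 read in each. Both libraries at 25 mM were lower, as at 6.37% of all peaks, on a difference of 1 read per library. The log2 fold change of -0.75 (SE 0.38, 95% interval -1.57 to 0.07) had the lowest p of any Hox peak in either mark (unadjusted p = 0.0693) and did not pass limma's test (adjusted p = 0.280).

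Hoxc10, another posterior gene, known for lumbar and hindlimb patterning, had few reads in both marks. H3K27Ac was 0.613 and 0 RPKM at 5 mM (1 and 0 reads) and 0.738 and 1.07 RPKM at 25 mM (2 and 3 reads), so the groups did not overlap. The log2 fold change was 0.90 (SE 0.78, adjusted p = 0.577), and it ranged from 0.32 to 1.48 with a library left out. H3K18La was 0, 0.512 and 1.95 RPKM at 5 mM, each above 0 on 1 read, and 0, 0 and 0.894 RPKM at 25 mM. Its log2 fold change was -0.61 (SE 0.63, adjusted p = 0.514). The value of 1.95 RPKM came from the shallowest library, where 1 read at this narrow peak is worth that much, and without that library the H3K18La log2 fold change was -0.015, against -1.16 without H3K18La 5 mM replicate 1. The difference between the marks in glucose change had an unadjusted p of 0.157 at Hoxc10, with H3K27Ac the more positive. It had an unadjusted p of 0.149 at Hoxc11, where H3K18La had no read and the difference is therefore the H3K27Ac value alone. Neither passed limma's test of the interaction (adjusted p = 0.945 for each).

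Hoxc8, a gene of the lower thoracic region, had neighbouring peaks, with none past the test. At the start-site peak H3K18La had 0, 1 and 1 reads at 5 mM and 0, 1 and 1 reads at 25 mM, and H3K27Ac had 1 and 1 reads at 5 mM and 3 and 0 at 25 mM. At the downstream peak H3K18La had 0, 1 and 0 reads at 5 mM and 1, 0 and 1 at 25 mM, and H3K27Ac had 1 and 1 reads at 5 mM and 5 and 1 at 25 mM. All 4 pairs of groups overlapped. The log2 fold changes at the start site were -0.19 for H3K18La and -0.12 for H3K27Ac, with SEs of 0.58 and 0.71. The sign of the H3K27Ac value comes from the log scale, since the mean was 0.382 RPKM at 5 mM and 0.406 RPKM at 25 mM. Downstream they were 0.57 and 0.40, with SEs of 0.47 and 0.58. The downstream H3K18La value became 0.29 without H3K18La 25 mM replicate 1 and 0.96 without H3K18La 25 mM replicate 2. The H3K27Ac value turned to -0.18 without H3K27Ac 25 mM replicate 1 and became 0.97 without H3K27Ac 25 mM replicate 2. The downstream H3K18La value had the lowest adjusted p of the 7 peaks for that mark, at 0.410 by limma.

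Hoxd12, which acts in the distal limb and the urogenital tract, had the highest H3K18La mean of the 7 over both glucose levels together, at percentile 22.3 of all peaks. Hoxc10 was higher at 5 mM and Hoxd3os1 at 25 mM. H3K18La there was 1.59, 0.649 and 0 RPKM at 5 mM (2, 2 and 0 reads) and 0.855, 0.827 and 0 RPKM at 25 mM (1, 2 and 0 reads). H3K27Ac was 0.389 and 0.812 RPKM at 5 mM and 0.935 and 0.453 RPKM at 25 mM. Both marks overlapped between glucose levels, with log2 fold changes of -0.14 (SE 0.60) and 0.11 (SE 0.74).

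Hoxd3os1 showed how far 1 library can carry a value at this depth. Its H3K18La signal was 0, 0.417 and 0 RPKM at 5 mM and 0, 2.12 and 0 RPKM at 25 mM, the 2.12 RPKM being 4 reads in replicate 2. The log2 fold change was 0.51 (SE 0.61, adjusted p = 0.577 by limma), and it was -0.29 without that library. H3K27Ac was 0.499 and 0.696 RPKM at 5 mM and 0.601 and 0.291 RPKM at 25 mM, with a log2 fold change of -0.23 (SE 0.74).

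No Hox peak passed the test for glucose in either mark. For H3K18La 0 of 7 passed, against 25.4% of all peaks, and 0 of 7 were under an unadjusted p of 0.05, against 38% of all peaks. The contrast depends on the scaling, since 8.38% of all peaks passed when libraries were centred on the median of all peaks and 0.00462%, or 5 peaks, when they were scaled to reads in peaks. For H3K27Ac 0 of 7 passed, against 0%, and 0 of 7 were under an unadjusted p of 0.05, against 21.5%. Under 3 alternatives 1 of 7, Hoxc11, came under that unadjusted p for H3K27Ac and was lower at 25 mM, with limma's unadjusted p of 0.0214 when centred, 0.0121 when scaled to reads in peaks and 0.0217 without H3K27Ac 5 mM replicate 2. Of all peaks, 12.2%, 2.00% and 22.2% were under an unadjusted p of 0.05 in these settings. Its adjusted p stayed at 0.306, 1 and 0.142. By voom 0 of 7 passed in either mark, against 23.2% of all peaks for H3K18La and 21.4% for H3K27Ac. For the difference between marks 0 of 7 passed and 0 of 7 were under an unadjusted p of 0.05, against 0% and 4.79%. The H3K18La groups overlapped at all 7 Hox peaks, whereas 36.6% of all peaks were higher in every library at 25 mM and 0.821% lower in every one. For H3K27Ac 2 Hox peaks (Hoxa7 and Hoxc10) were higher in both libraries, against 53% of all peaks, and 1 (Hoxc11) was lower, against 6.37%.

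The estimates at the Hox peaks had wide errors, and their signs depended on the scaling. The median H3K18La log2 fold change over the 7 was 0, from -0.61 to 0.57, against 0.76 over all peaks and 0.88 over promoter peaks. That 0 is the value of Hoxc11, which had no H3K18La read. The median for H3K27Ac was 0.11, from -0.75 to 0.90, against 0.58 and 1.13. The H3K18La estimate lay under the median of all peaks at 7 of 7 Hox peaks and the H3K27Ac estimate at 6 of 7. The 95% interval held 0 at 7 of 7 in each mark. It lay wholly under the median of all peaks at 1 Hox peak in each mark, Hoxc11 in both, and there the H3K18La interval of -0.67 to 0.67 belongs to a peak with no read. Scaled to reads in peaks, the H3K18La median was -0.048 over the Hox peaks and -0.049 over all peaks, and the H3K27Ac medians were -0.51 and -0.28. This scaling moves all peaks of a library by 1 factor, so the Hox mean against the mean of all peaks in a library stays the same. The medians shift against each other only through the added 0.5 RPKM. Centring subtracts 1 amount from all peaks of a library, so small estimates turn negative by the shift itself. With each library centred on the median of all peaks, which moved that median from 0.76 to 0.13 for H3K18La and from 0.58 to 0.14 for H3K27Ac, 0 Hox estimates were above 0 and 7 below for H3K18La, in place of 3 and 3. For H3K27Ac 2 were above and 5 below, in place of 4 and 3. The Hox and all-peak medians stayed as far apart as before, at -0.63 and 0.13 for H3K18La and -0.32 and 0.14 for H3K27Ac.

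**Figure D4:**
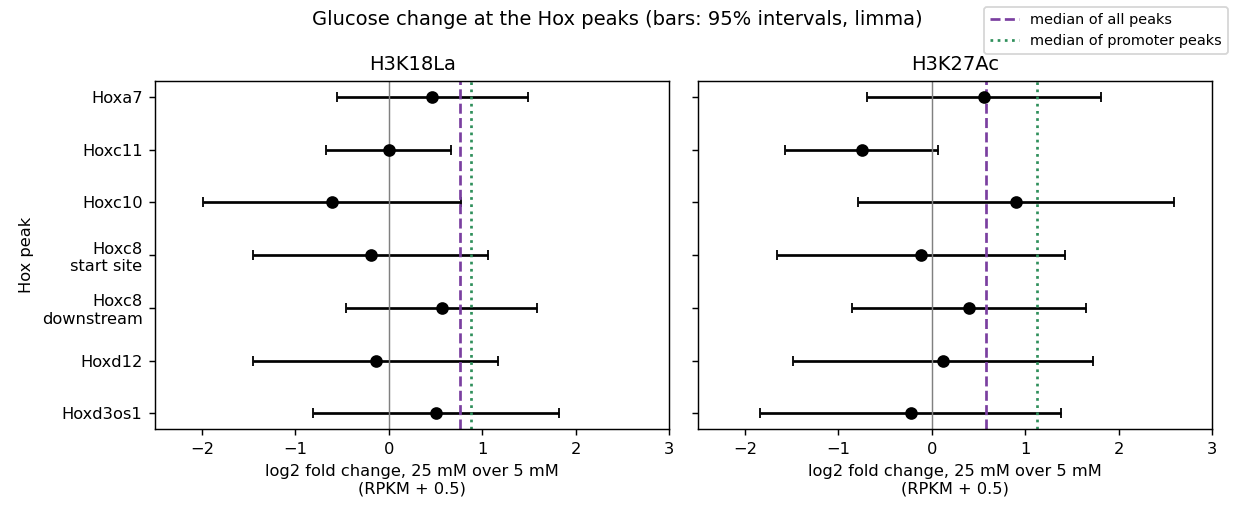
Log2 fold change of 25 over 5 mM glucose on the RPKM + 0.5 scale (horizontal axis) at each Hox peak (vertical axis), for H3K18La at left and H3K27Ac at right. Points are limma estimates and bars their 95% intervals; all 14 bars cross the grey line at 0, and the dashed and dotted lines mark the medians of all peaks and of promoter peaks.

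Across all peaks, low signal in the other mark went with a small glucose change, so the Hox peaks were set beside peaks of like level in that mark. Level was the mean of the other mark over both glucose levels together. A peak that rose with glucose in both marks was thereby ranked higher, so the ranking was not independent of the change. How much of the trend across deciles comes from this was not tested. Ranked by their H3K27Ac mean, 5 Hox peaks fell in the second decile of all peaks and 2 in the third. The H3K18La change in those deciles had a median of 0.25 and 0.41, with ratios of mean RPKM of 1.34 and 1.54, whereas in the top decile the median was 1.63 and the ratio 3.70. Ranked by their H3K18La mean, 2 Hox peaks fell in the lowest decile, 4 in the second and 1 in the third. The H3K27Ac change in those deciles had medians of 0, 0.19 and 0.30 and ratios of 1.26, 1.51 and 1.66, against 1.29 and 2.70 in the top decile. The Hox ratios of 1.08 and 1.23 lay nearer to those of peaks ranked low in the other mark than to the ratios over all peaks. No test of that difference was made. The fold change is on the log2(RPKM + 0.5) scale, which understates the change of low peaks.

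Peaks of other symbols in and around the clusters were counted too. Inside or within 200 kb of the clusters, Hox peaks left out, lay 47 peaks with 21 symbols, of which 13 passed limma's test for higher H3K18La and 1 for lower. That is 27.7% called higher, against 25.1% of all peaks, but 10 of the 13 lay beside Hoxc, among 26 peaks. At Hoxa, Hoxb and Hoxd together, with the Gm27543 peaks inside Hoxa included, 3 of 21 were called higher, or 14.3%, 1 at each cluster, a split made after the values were seen. The median H3K18La log2 fold change was 1.05 at Hoxc, 0.53 at Hoxd, 0.14 at Hoxa and -0.016 at Hoxb, against 0.76 over all peaks. Smug1, a DNA repair gene, held 6 of the 10 calls beside Hoxc, at 6 of its 7 peaks, with a mean H3K18La of 1.48 RPKM at 5 mM and 6.51 RPKM at 25 mM. Evx1, a homeobox gene at the end of the Hoxa cluster and itself a patterning gene of the embryo, had 2 peaks and none called, at 0.268 and 0.520 RPKM. Of the flanking genes chosen, 11 had peaks, 60 in all, and 17 of the 60 were called higher, a share of 28.3%. None of 14 non-coding RNA and miRNA genes of the clusters, Hotair, Hottip and Mir10a among them, had an assigned peak.

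Genes that act on or with the Hox family had many peaks, and their mean signal was above that of the family. Hox cofactors of the Meis, Pbx and Pknox families, which bind DNA together with Hox proteins, had 124 peaks at 9 of 9 genes. For H3K18La 40 of the 124 were called higher, a share of 32.3%, against 25.1% of all peaks. Meis1 alone had 18 of 27 called, from 1.84 to 6.81 RPKM. Polycomb genes, which encode the complexes that silence Hox clusters, had 99 peaks at 20 of 20 genes, and 40 were called higher, a share of 40.4%, with 22 of 33 at Jarid2. Activators of Hox genes, such as Kmt2a, had 20 peaks at 7 of 9 genes, and 5 were called higher. Their share of 25% was near that of all peaks. Mean H3K18La at 5 and 25 mM was 1.18 and 3.31 RPKM for cofactors, 1.35 and 3.97 RPKM for Polycomb genes and 0.925 and 2.07 RPKM for activators. These are ratios of 2.81, 2.94 and 2.24, against 1.08 for the Hox peaks and 2.53 over all peaks. For H3K27Ac these ratios were 2.06, 2.41 and 2.86, against 1.23 for the Hox peaks and 2.24 over all peaks. No test was made of a difference between lists.

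Other homeobox genes were set beside the Hox peaks. Retinal homeobox genes, such as Crx, which drives photoreceptor genes, had 68 peaks at 14 of 14 genes. Of these peaks, 15 were called higher for H3K18La, a share of 22.1%, against 25.1% of all peaks. Their mean went from 1.15 ± 0.114 to 2.86 ± 0.343 RPKM (SD, n = 3), and H3K27Ac from 3.17 ± 0.903 to 9.29 ± 1.58 RPKM (SD, n = 2). Otx2, Prox1 and Rax held 12 of the 15 calls, and 9 of the 14 genes had none. At Crx both peaks were called, with H3K18La at 1.60 and 10.0 RPKM and H3K27Ac at 7.89 and 45.5 RPKM, whereas H3K18La was 0.559 and 0.364 RPKM at Isl1 and 1.04 and 0.922 RPKM at Vsx1. Homeobox genes with roles mainly outside the retina had 38 peaks at 11 of 18 genes, and 5 were called higher, a share of 13.2%. Their H3K18La mean went from 0.999 ± 0.0881 to 1.92 ± 0.147 RPKM and their H3K27Ac mean from 0.707 ± 0.248 to 0.981 ± 0.0579 RPKM, ratios of 1.92 and 1.39. En2 with 8 peaks, at 1.86 and 4.73 RPKM, and Alx4 with 10 peaks, at 1.14 and 2.00 RPKM, carried much of the H3K18La value. Without them the other 20 peaks had an H3K18La mean of 0.584 ± 0.185 and 0.763 ± 0.199 RPKM (SD, n = 3), a ratio of 1.31, and 1 of the 20 was called higher. That split was made after the values were seen, because of these genes' values, so the lower remainder follows from the choice.

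**Figure D5:**
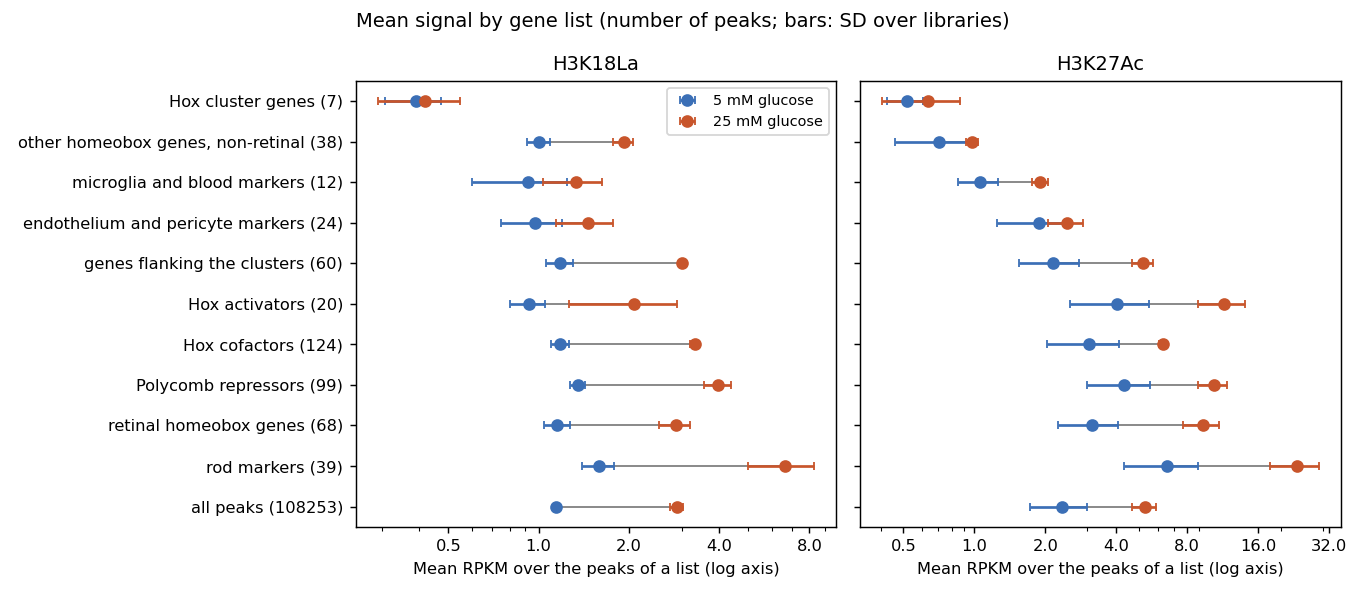
Mean RPKM over the peaks of each gene list (horizontal axis, log scale) at 5 mM (blue) and 25 mM glucose (orange), for H3K18La at left and H3K27Ac at right, with the number of peaks in brackets. Points are means over libraries and bars their SD; the Hox points at the top are the lowest in each panel and overlap between glucose levels, while rod markers went from 1.59 to 6.65 RPKM for H3K18La.

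Marker genes were used to check the labelled tissue. Rod markers had the highest signal of the marker lists at 25 mM. Their H3K18La went from 1.59 to 6.65 RPKM over 39 peaks, 22 of them called higher, and their H3K27Ac from 6.58 to 23.4 RPKM. At 5 mM rod markers were the highest for H3K27Ac only. For H3K18La, ganglion and bipolar markers were then higher, each at 1.67 RPKM. Peaks called higher for H3K18La numbered 5 of 9 for cones, 35 of 72 for bipolar cells, 3 of 21 for Müller glia and 1 of 14 for ganglion cells, against 25.1% of all peaks. They numbered 1 of 10 for pigment epithelium, a list that shares Rlbp1 with that of Müller glia, 2 of 12 for microglia and blood and 0 of 24 for endothelium and pericytes. No marker peak was called lower, against 328 of all 108253 peaks. The H3K18La means of these last 3 lists went from 0.956, 0.920 and 0.972 RPKM to 1.44, 1.33 and 1.46 RPKM. In bulk libraries fewer cells carrying a mark and less mark per cell cannot be told apart, and whether the few Hox reads came from such cells was not tested.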

How the data were processed

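CUT&Tag signal was taken from 10 libraries in 4 groups. According to the study's methods the authors aligned paired reads to GRCm38 with nf-core/cutandrun, called peaks with MACS, merged them, counted reads with csaw and named peaks with ChIPseeker 1.34.1. The deposited values are RPKM, 1 column per library. Whether csaw's normalization enters the RPKM denominators is not given in the sources used here. A deposited table of the authors' own differential tests, with fold changes and p-values, was not used.

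Whole reads were recovered by dividing each value by that of 1 read, and 100% of values were whole within 0.01. Values were tested as log2(RPKM + 0.5) with limma 3.58.1 (lmFit, contrasts.fit and eBayes with a trend) in R 4.3.3, over all 4 groups together, which share 1 estimate of the spread. P-values were adjusted by Benjamini-Hochberg over all 108253 peaks with a threshold of 0.05. As the deposited values are RPKM, no count model was the main test, and voom on the recovered reads was an alternative. A count of 3 reads was the limit for a value of 0. Exact intervals for pooled reads are conditional binomial.

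All 7 Hox peaks were described, and none was filtered out. Those named with full values were the ones without overlap between groups, the highest of each cluster and mark, the smallest p for the difference between marks in each direction and the widest. Hoxd3os1 and both Hoxc8 peaks were added after their values were seen. The Hox peaks and gene lists were chosen with earlier results of these data known. Genes were checked against GENCODE M21, in which 99.7% of shared transcripts had the same coordinates and 7 of 7 Hox transcripts did. RefSeq promoter windows were matched by symbol, 24 for Hox genes. Alternatives were other pseudocounts, a filter on low values, scaling, centring, robust moderation, separate fits per mark, voom, a replicate block and leaving out each library.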

Additional observations from a re-analysis of the deposited data

How the results depend on the processing

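The count of Hox peaks past the threshold was 0 of 7 in all 18 alternatives for H3K18La, 18 for H3K27Ac and 17 for the difference between marks, with the lowest adjusted p between 0.187 and 0.518, 0.142 and 1, and 0.742 and 1. A filter at a mean of 1 RPKM left no Hox peak and so no value. The ratio of mean RPKM over the Hox peaks became 0.397 for H3K18La and 0.476 for H3K27Ac when libraries were scaled to their reads in peaks, and it ranged from 0.908 to 1.24 and from 0.917 to 1.55 with a library left out. Of 252 single-peak fold changes under alternatives, 19 reversed and 0 came past the threshold. Sizes moved by more than 1.5 times at several, for example with a pseudocount of 0.1, where H3K18La was 1.14 at Hoxa7, -1.22 at Hoxc10 and 1.26 at the downstream Hoxc8 peak, and H3K27Ac was 1.89 at Hoxc10 and -1.24 at Hoxc11, which voom put at 1.28 and -1.21. Centred on the median of all peaks, log2 fold changes became -0.12 at Hoxd3os1, -0.17 at Hoxa7 and -0.064 at the downstream Hoxc8 peak for H3K18La, and -0.32 at Hoxd12 and -0.041 at the downstream Hoxc8 peak for H3K27Ac. Scaled to reads in peaks, they became -0.048 at Hoxa7 for H3K18La, and -0.51 at Hoxd12, -0.22 at Hoxa7 and -0.17 at the downstream Hoxc8 peak for H3K27Ac. With a library left out, H3K18La ranged from -0.68 to 0.35 at Hoxd12, -0.65 to 0.32 at the Hoxc8 start site and -0.29 to 0.90 at Hoxd3os1. H3K27Ac then ranged from -0.18 to 0.41 at Hoxd12, -0.18 to 0.97 at the downstream Hoxc8 peak, -0.47 to 0.0098 at Hoxd3os1 and -0.81 to 0.58 at the Hoxc8 start site. For the difference between marks, Hoxc11 came under an unadjusted p of 0.05 in limma's fit across all peaks when scaled to reads in peaks and without H3K27Ac 5 mM replicate 2, with an adjusted p of 1 in both. Of all peaks 3.80% and 3.95% were under it there. The cause was not tested.

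Over all peaks, the H3K18La count of 27542 became 9077 (8004 higher, 1073 lower) when centred and 5 when scaled to reads in peaks. The H3K27Ac count of 0 became 9570 with a pseudocount of 1, 7349 with the filter, 4473 with robust moderation, 23148 by voom, and 7266 without H3K18La 5 mM replicate 3 or 5329 without H3K27Ac 5 mM replicate 2. Within each mark, deviations from the group means correlated by only 0.013 to 0.029 between libraries of like number (72467 peaks). So low a correlation cannot show that these libraries came from different animals or cultures. Pairing between the marks was not checked. With a replicate block 0 Hox peaks were called, with lowest adjusted p of 0.394, 0.361 and 0.954, and 24115 peaks over all for H3K18La. Depth limits these values, since most Hox values rest on 3 reads or fewer, and so does the choice of scaling.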
